A study of Oryctolagus cuniculus with 17 samples.

Results

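Potassium channel genes were taken as all entries of the count table whose human gene name has the form KCN, further letters and a closing number. Of the 13827 entries, 70 had such a name, each name once, so no choice between entries of the same name was needed. The name alone decided which genes belong, whereas hyperoxia against normoxia values had already served to single out KCNJ2, KCNA6 and KCNH6, so the hyperoxia values of these 3 genes are given as a description without a p-value. Counts were filtered for low values before testing, and 55 of the 70 genes were tested. The other 15 had between 4 and 87 counts over all 17 samples together and never more than 0.649 CPM (counts scaled to the normalized total of each sample).

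The samples are labelled as homogenates of the right lung of New Zealand White rabbit pups. The study's methods also name the right lung, whereas its results name the left. All pups were preterm, delivered by C-section on gestational day 28, and fed a milk replacer in incubators. Hyperoxia pups (95% oxygen) were sampled after 3 days (HT3, 3 samples), 5 days (HT5, 2 samples) and 7 days (HT7, 3 samples), and normoxia pups (21% oxygen) on the same days (NT3, NT5 and NT7, 3 samples each). Litters are not given, so p-values measure the spread between these samples. Stranded poly(A) libraries were counted per locus. With each locus counted once, a sample held 13123731 to 18111086 counts, of which 5779 to 11206 fell on the 70 potassium channel genes. On the normalized totals of the tested entries, which CPM uses, 3 counts correspond to 0.151 to 0.206 CPM.

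Potassium channels let potassium leave or enter cells along its gradient and thereby set the membrane potential. In the lung, those of arterial smooth muscle set vascular tone, those of epithelium keep up the driving force for chloride and fluid transport, and those of immune cells sustain calcium entry. The family holds voltage-gated pore subunits, inward rectifiers, 2-pore-domain leak channels, channels opened by calcium or sodium, and auxiliary subunits that change the gating or trafficking of a pore. Fewer cells of a type and less RNA per cell cannot be told apart in whole lung RNA.

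For each day, hyperoxia was set against normoxia in edgeR (quasi-likelihood), and p was adjusted by Benjamini-Hochberg over the 13142 genes tested. A gene passed at an adjusted p under 0.01. Changes are given as log2FC, the log2 of the ratio of hyperoxia to normoxia. On day 3, 1 of the 55 potassium channel genes passed (0.205% of all genes), and it was higher (0.0989% of all genes higher, 0.107% lower). On day 5, 12 passed (16.2% of all genes), 4 higher (8.56% of all genes) and 8 lower (7.62%). On day 7, 16 passed (33.6% of all genes), 2 higher (16.7%) and 14 lower (16.9%). A log2FC beyond 2 in addition was met by 1 gene on day 3 (0.0533% of all genes), 5 on day 5 (1.58%) and 8 on day 7 (4.59%). At an adjusted p under 0.05, 2, 19 and 22 genes passed on the 3 days (1.03%, 31.3% and 47.4% of all genes). Since hyperoxia values entered the choice of this family, nothing is read from these shares. Over the 3 days, 20 genes passed at least once (35.2% of all genes), 6 of them higher (17.7%) and 14 lower (17.5%). In all 29 calls no hyperoxia value fell within the range of normoxia on that day. How often this held among the calls of all genes was not counted, so nothing is read from it. Without regard to any threshold, the groups did not overlap for 20 genes on day 3 (26.7% of all genes), 28 on day 5 (55.7%) and 28 on day 7 (54.5%). The median log2FC of the 55 genes was -0.20 on day 3, -0.43 on day 5 and -0.41 on day 7, against 0.00, -0.02 and -0.01 for all genes.

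By the course of their calls, 14 genes were falling (lower on at least 1 day), 2 were rising, and 4 were transient. Transient genes passed on day 3 or 5, did not pass on day 7, and by then had under 0.5 of the earlier log2FC. The share of all genes that were transient was not counted, so nothing is read from the numbers of transient genes. Voltage-gated pore subunits held 6 falling and 2 transient genes of 21 tested, and auxiliary subunits 6 falling genes of 15, where 17.5% of all genes were lower and 17.7% higher on at least 1 day. The 8 leak channels held 2 falling and 1 rising gene, the 6 calcium- or sodium-activated channels 1 rising and 1 transient gene, and the 5 inward rectifiers 1 transient gene. The day 5 calls rested on few samples. Without NT5 replicate 2 or 3, 4 genes passed in place of 12, and in a fit of the 5 samples of day 5 alone none passed. On day 7, between 14 and 17 genes passed in the fits that dropped a single sample. The share of all genes that passed in these fits was not counted, so nothing about this family is read from the losses.

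**Figure D1:**
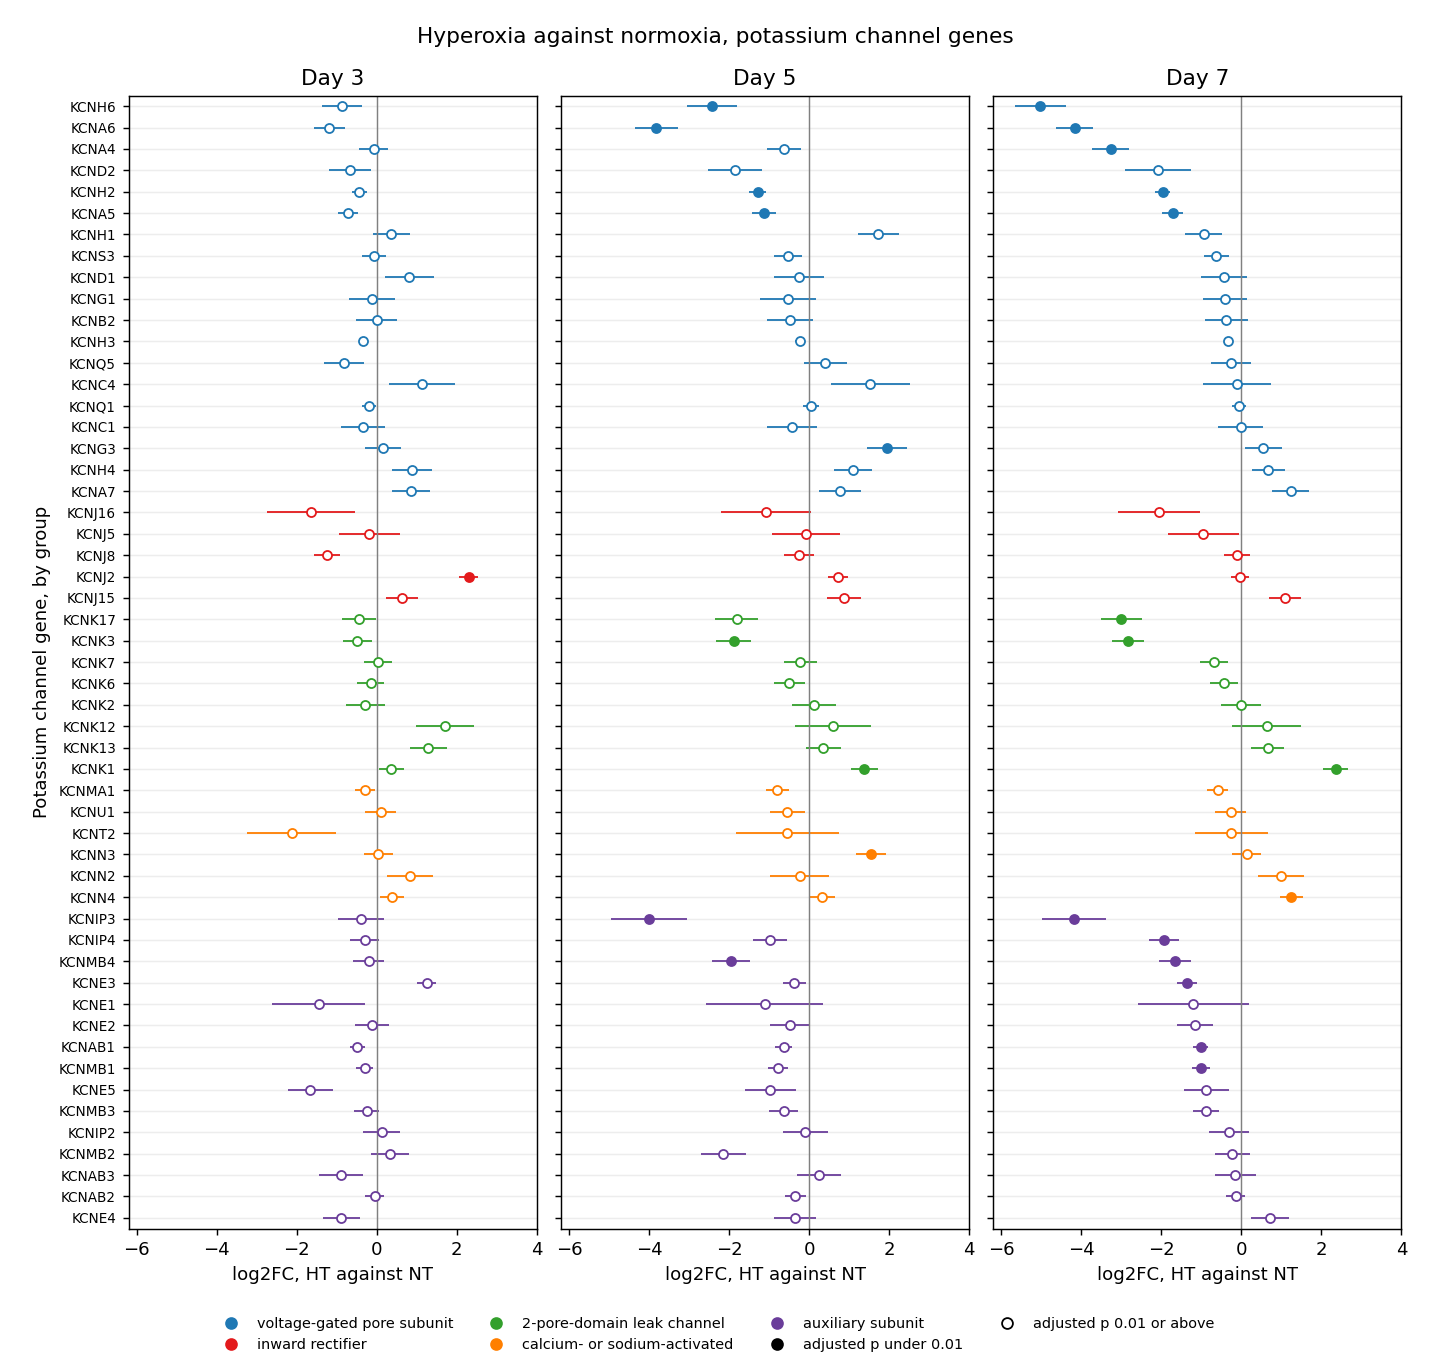
Log2FC of hyperoxia (HT) against normoxia (NT) on days 3, 5 and 7 for 53 of the potassium channel genes tested, with each gene on its own line, grouped by channel type and sorted by day 7. Bars are standard errors and filled points have an adjusted p under 0.01 in edgeR. For KCNJ2, KCNA6 and KCNH6, which hyperoxia values had singled out, the filling is a description. On day 7, filled points lie at -1 or below for 13 genes and above 0 for KCNK1 and KCNN4.

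KCNH6 and KCNH2 belong to the ERG subfamily, voltage-gated channels best known for repolarizing heart and nerve cells, and both were lower in hyperoxia on days 5 and 7. KCNH7, of the same subfamily, was not tested for its low counts. KCNH6 (ENSOCUG00000015857, chromosome 19 from 48395662 to 48409523, forward strand) had 58.7, 31.4 and 34.3 CPM in the HT3 samples and 54.9, 79.2 and 92.4 CPM in NT3. On day 5 it had 18.7 and 3.90 CPM in HT5 and 51.0, 62.1 and 67.9 CPM in NT5. On day 7 it had 0.404, 3.51 and 0.768 CPM in HT7 and 46.0, 40.9 and 62.9 CPM in NT7. The groups overlapped on day 3 and were apart on days 5 and 7, and the HT5 samples differed widely from each other. The log2FC was -0.87 (standard error 0.50), -2.43 (standard error 0.62) and -5.03 (standard error 0.64) on the 3 days. Without HT5 replicate 2, the day 5 value was -1.71, and without HT5 replicate 1 it was -3.95. The day 7 value was -6.37 without HT7 replicate 2, the highest of the 3 HT7 samples.

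KCNH2, the founding human member of the same subfamily, fell with a smaller spread. It had 13.0 and 10.2 CPM in HT5 against 25.6, 26.5 and 32.6 CPM in NT5, and 5.54, 8.53 and 4.66 CPM in HT7 against 23.5, 26.7 and 23.2 CPM in NT7. No hyperoxia sample of these days reached the lowest normoxia sample. Its log2FC was -1.28 on day 5 (standard error 0.22, adjusted p = 0.000862 in edgeR) and -1.97 on day 7 (standard error 0.20, adjusted p = 4.95e-06). Without HT5 replicate 2 the day 5 change did not pass. KCNH3, which encodes a related ELK channel, had log2FC values of -0.35, -0.23 and -0.33 and did not pass on any day (adjusted p = 0.0123 on day 7 from edgeR). It shares a locus and its counts with SPATS2, so its counts cannot be assigned to the channel. KCNH1, an EAG channel, had a log2FC of 1.74 on day 5 (adjusted p = 0.0186 from edgeR) and -0.94 on day 7 (adjusted p = 0.112), and did not pass.

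Among the Shaker-type channels, KCNA4, KCNA5 and KCNA6 were lower in hyperoxia. KCNA6 (ENSOCUG00000016046, chromosome 8 from 30900372 to 30901967, forward strand) had 2.66, 4.93 and 5.49 CPM in HT3 against 9.35, 11.5 and 8.82 CPM in NT3. It had 0.688 and 0.595 CPM in HT5 against 7.82, 11.8 and 7.70 CPM in NT5, and 0.288, 0.726 and 0.307 CPM in HT7 against 3.62, 9.51 and 10.7 CPM in NT7. The hyperoxia samples lay below the normoxia samples on each of the 3 days. The log2FC was -1.18 (standard error 0.38) on day 3, -3.82 (standard error 0.54) on day 5 and -4.17 (standard error 0.47) on day 7. Without HT5 replicate 2, the day 5 value was -3.73.

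KCNA4 encodes a rapidly inactivating channel. Its CPM were 3.02, 1.83 and 1.63 in HT3 against 1.90, 3.23 and 1.65 in NT3, where the groups overlapped. They were 2.20 and 1.57 in HT5 against 2.30, 3.501 and 2.89 in NT5, and 0.115, 0.181 and 0.359 in HT7 against 1.64, 2.63 and 2.37 in NT7. The HT7 values rest on 2, 3 and 7 counts. Its log2FC was -0.07 on day 3, -0.62 on day 5 and -3.27 on day 7 (standard error 0.45, adjusted p = 5.65e-05 in edgeR), and it passed on day 7 alone of the 3 days. The change of the effect from day 5 to day 7 was -2.65 (standard error 0.61), which did not pass when tested itself (adjusted p = 0.393 from edgeR). KCNA4 lies on chromosome 1 from 169184762 to 169186723 on the reverse strand.

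KCNA5, known as an oxygen-sensitive channel of pulmonary artery smooth muscle, had 6.94 and 5.74 CPM in HT5 against 12.4, 15.9 and 13.3 CPM in NT5. It had 4.67, 3.27 and 2.36 CPM in HT7 against 12.9, 11.5 and 9.53 CPM in NT7, and the groups were apart on both days. The log2FC was -1.13 on day 5 (standard error 0.29, adjusted p = 0.00976 from edgeR) and -1.72 on day 7 (standard error 0.26, adjusted p = 0.000122). The day 5 call was lost when any of the 5 samples of that day was left out, whereas day 7 passed in all 6 such fits. KCNA5 and KCNA6 lie 226 kb apart on chromosome 8 with KCNA1 between them, and KCNA1 was not tested for its low counts. KCNA7, another Shaker-type channel, had 1.096, 0.968 and 1.229 CPM in HT7 against 0.547, 0.540 and 0.312 CPM in NT7, and hyperoxia also lay above normoxia on day 5. Its log2FC values were 0.86, 0.77 and 1.23 on days 3, 5 and 7, and it did not pass (adjusted p = 0.0387 on day 7 from edgeR). SNRNP70 overlaps it on the opposite strand.

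KCNQ1, an epithelial and cardiac voltage-gated channel, had 20.5, 26.1 and 20.3 CPM in HT7 against 25.1, 23.1 and 21.2 CPM in NT7. Its day 7 log2FC was -0.05, with a 95% interval from -0.40 to 0.29.

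**Figure D2:**
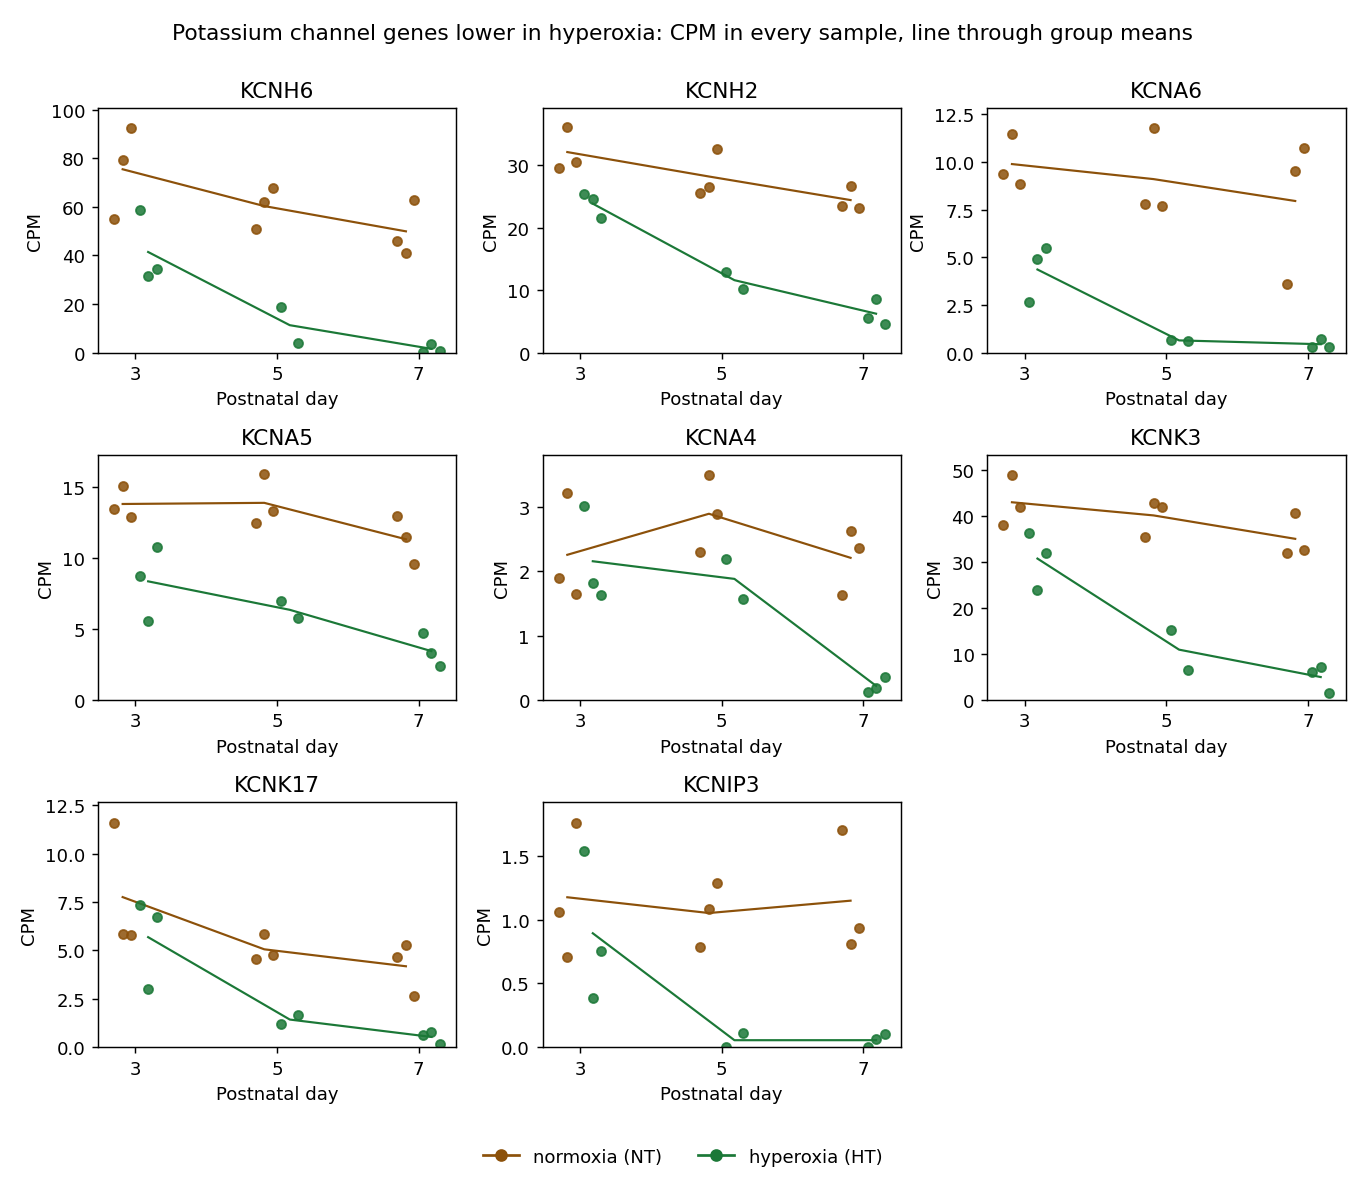
CPM of 8 falling potassium channel genes in every sample on postnatal days 3, 5 and 7 (brown, normoxia; green, hyperoxia), with lines through the group means. In each panel the HT7 points lie below all NT7 points, for KCNH6 between 0.404 and 3.51 CPM against 40.9 to 62.9 CPM.

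Of the leak channels, which carry the background potassium current, KCNK3 and KCNK17 fell and KCNK1 rose. KCNK3, the acid-sensitive TASK channel whose loss-of-function variants are a cause of pulmonary arterial hypertension, had 36.4, 23.9 and 31.9 CPM in HT3 against 38.2, 48.9 and 42.0 CPM in NT3. It had 15.3 and 6.60 CPM in HT5 against 35.5, 43.0 and 42.0 CPM in NT5, and 6.06, 7.26 and 1.59 CPM in HT7 against 31.9, 40.7 and 32.6 CPM in NT7. The groups were apart on each day. The log2FC was -0.48 on day 3 (adjusted p = 0.561 from edgeR), -1.89 on day 5 (standard error 0.44, adjusted p = 0.0057) and -2.83 on day 7 (standard error 0.40, adjusted p = 6.79e-05). Leaving out HT5 replicate 2 or NT5 replicate 2 or 3 ended the day 5 call, and the day 5 log2FC was -1.41 without HT5 replicate 2 and -2.60 without HT5 replicate 1. KCNK3 lies on chromosome 2 from 159250246 to 159283331.

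KCNK17, an alkaline-activated channel (chromosome 12 from 29128191 to 29143662), had 7.33, 2.99 and 6.71 CPM in HT3 against 11.6, 5.85 and 5.80 CPM in NT3, with overlap. It had 1.17 and 1.68 CPM in HT5 against 4.54, 5.86 and 4.75 CPM in NT5. It had 0.635, 0.786 and 0.154 CPM in HT7 against 4.65, 5.26 and 2.62 CPM in NT7. The log2FC was -1.81 on day 5 (adjusted p = 0.0188 from edgeR) and -3.00 on day 7 (standard error 0.51, adjusted p = 0.000278). The table lists KIF6 on the same strand over part of this gene, and how reads common to both were counted is not given in the sources used here.

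KCNK1, a weakly inward rectifying leak channel (chromosome 16 from 34452022 to 34495175), had 2.43, 2.71 and 3.21 CPM in HT3 against 2.13, 2.42 and 1.93 CPM in NT3. It had 6.33 and 5.19 CPM in HT5 against 3.27, 1.15 and 2.17 CPM in NT5, and 11.5, 11.1 and 12.2 CPM in HT7 against 2.60, 2.698 and 1.495 CPM in NT7. The normoxia values stayed between 1.15 and 3.27 CPM, both of them in NT5, while those of hyperoxia were higher on each later day. The log2FC was 0.36 on day 3, 1.38 on day 5 (standard error 0.34, adjusted p = 0.00699 from edgeR) and 2.35 on day 7 (standard error 0.31, adjusted p = 4.22e-05). On day 5 it passed only without NT5 replicate 1 among the 5 fits that dropped a sample. The effect of day 7 exceeded that of day 3 by 1.99 (standard error 0.44, adjusted p = 0.00731 from edgeR), a call that was lost with the replicate block and in 11 of the 12 fits that dropped a sample. The other 5 leak channels tested, KCNK2, KCNK6, KCNK7, KCNK12 and KCNK13, did not pass on any day.

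The inward rectifier KCNJ2 (ENSOCUG00000010416, chromosome 19 from 53916674 to 53923901, forward strand), which holds the resting potential of endothelial, muscle and myeloid cells near that of potassium, was transient. It had 54.1, 65.0 and 37.7 CPM in HT3 against 9.69, 10.7 and 11.4 CPM in NT3. On day 5 it had 17.8 and 18.8 CPM in HT5 against 9.94, 13.7 and 9.72 CPM in NT5, and on day 7 it had 14.1, 25.0 and 17.6 CPM in HT7 against 20.4, 16.1 and 21.4 CPM in NT7. The groups were far apart on day 3, close on day 5 and overlapping on day 7. The log2FC was 2.30 (standard error 0.23), 0.72 (standard error 0.25) and -0.03 (standard error 0.23) on the 3 days. Both the fall in hyperoxia and a higher level in NT7 than in NT3 entered the day 7 value. The summed level of 5 neutrophil markers was 895 to 1254 CPM in HT3 against 259 to 617 CPM in NT3, and its part in the day 3 value was not tested.

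KCNJ16, an inward rectifier of transporting epithelia 33.1 kb from KCNJ2 on chromosome 19, had log2FC values of -1.65, -1.08 and -2.06, each with a standard error above 1, and did not pass. Its CPM ran from 0.848 to 10.4 within NT5 alone. KCNJ15, an epithelial inward rectifier, had 68.6, 124.8 and 80.0 CPM in HT7 against 52.9, 42.4 and 33.02 CPM in NT7. Its day 7 log2FC of 1.09 (standard error 0.40) had an adjusted p of 0.0356 from edgeR and did not pass. On day 5 its log2FC was 0.88 and did not pass, but without NT5 replicate 1 it was 1.585 and passed. Among the inward rectifiers, KCNJ5 did not pass on any day, and KCNJ3, KCNJ6, KCNJ9, KCNJ14 and KCNJ18 were not tested for low counts.

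The pore subunit KCNJ8 forms ATP-sensitive channels of pericytes and smooth muscle together with the sulfonylurea receptor ABCC9, and both were highest in the same HT7 sample, replicate 1. KCNJ8 had 4.61, 4.27 and 6.24 CPM in HT3 against 12.7, 10.3 and 12.9 CPM in NT3, and 18.1, 6.11 and 7.63 CPM in HT7 against 12.9, 9.58 and 11.9 CPM in NT7. Its log2FC was -1.25 on day 3 (standard error 0.33, adjusted p = 0.0903 from edgeR), -0.25 on day 5 and -0.11 on day 7, and it did not pass on any day. The effect of day 7 minus that of day 3 was 1.14 and did not pass either (adjusted p = 0.0935 from edgeR). ABCC9 had 50.6, 23.3 and 34.9 CPM in HT7 against 18.5, 12.8 and 13.3 CPM in NT7, and it rose by a log2FC of 1.29 on day 7 (adjusted p = 0.000636 from edgeR), after 0.88 on day 5 (adjusted p = 0.022) and -0.13 on day 3.

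**Figure D3:**
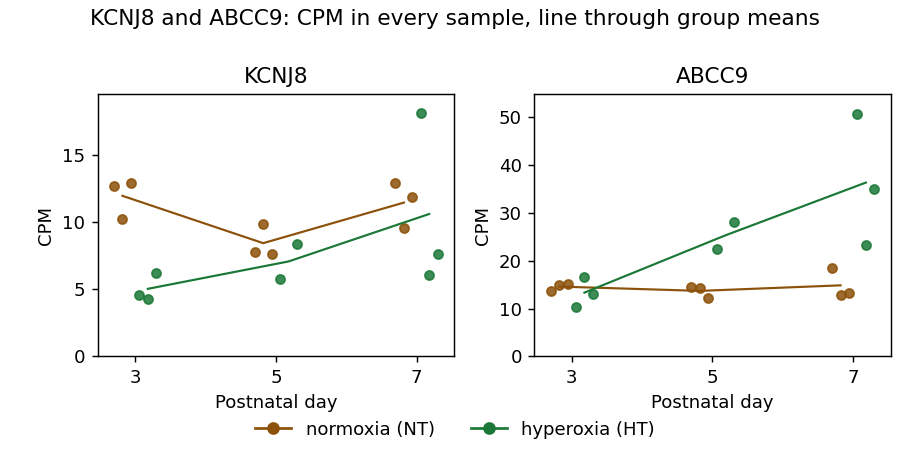
CPM of KCNJ8 and ABCC9 in every sample on postnatal days 3, 5 and 7 (brown, normoxia; green, hyperoxia), with lines through the group means. The HT3 points of KCNJ8 lie between 4.27 and 6.24 CPM, below all NT3 points, and the HT7 points of ABCC9 lie between 23.3 and 50.6 CPM, above all NT7 points.

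The remaining transient genes peaked on day 5. KCNG3 encodes an electrically silent subunit that alters the delayed rectifiers it assembles with. It had 1.99 and 1.62 CPM in HT5 against 0.303, 0.509 and 0.568 CPM in NT5, and 0.461, 1.33 and 1.28 CPM in HT7 against 0.615, 0.472 and 0.997 CPM in NT7. Its log2FC was 0.15, 1.95 (standard error 0.50, adjusted p = 0.00955 from edgeR) and 0.55 on days 3, 5 and 7. Leaving out any sample of day 5 ended this call, with adjusted p-values from 0.0209 to 0.053. The silent subunits KCNG1 and KCNS3 did not pass on any day.

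KCNN3, a small-conductance calcium-activated channel of endothelium and nerve, had 3.16 and 5.30 CPM in HT5 against 1.45, 1.27 and 1.60 CPM in NT5. It had 1.62, 1.75 and 1.38 CPM in HT7 against 1.30, 1.01 and 1.99 CPM in NT7, where the groups overlapped. The log2FC was 1.55 on day 5 (standard error 0.39, adjusted p = 0.00789 from edgeR), 0.04 on day 3 and 0.14 on day 7. Dropping a sample of day 5 ended the call in 4 of 5 cases, and without HT5 replicate 2 the log2FC was 1.11 (adjusted p = 0.152 from edgeR). Skeletal muscle markers summed to 391 and 61.4 CPM in HT5 replicates 1 and 2 against 93.8 to 116 CPM in NT5, and their part in the day 5 values was not tested. The effect of day 7 minus that of day 5 was -1.40 for KCNG3 and -1.41 for KCNN3. When this difference was tested itself, neither passed (adjusted p of 0.605 and 0.511 in edgeR).

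KCNN4, the intermediate-conductance channel of lymphocytes, macrophages and epithelium, rose on day 7. It had 4.61, 3.69 and 5.12 CPM in HT7 against 1.30, 2.29 and 2.06 CPM in NT7, and its groups overlapped on day 5. The day 7 log2FC was 1.25 (standard error 0.28, adjusted p = 0.00217 from edgeR), after 0.38 and 0.33 on days 3 and 5. The difference between days did not pass when tested itself (adjusted p = 0.143 for day 7 minus day 3 and 0.584 for day 7 minus day 5, from edgeR). The day 7 call was lost without HT7 replicate 3, without NT7 replicate 1 and in a fit of the day 7 samples alone. KCNMA1, the large-conductance calcium-activated channel, had log2FC values of -0.29, -0.79 and -0.60, and its adjusted p was 0.0527 on day 5 and 0.0726 on day 7 from edgeR.

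**Figure D4:**
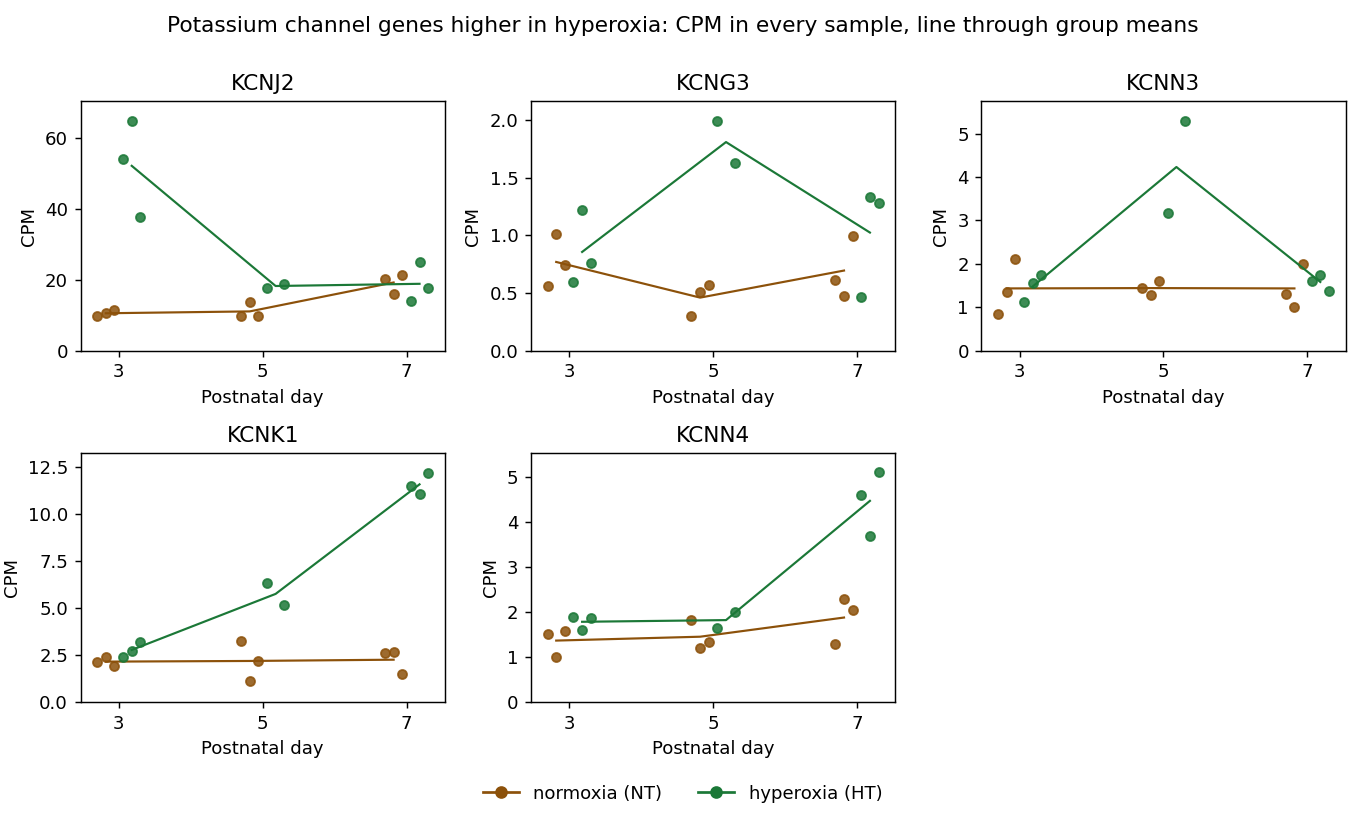
CPM of 3 transient and 2 rising potassium channel genes in every sample on postnatal days 3, 5 and 7 (brown, normoxia; green, hyperoxia), with lines through the group means. KCNJ2 peaks in HT3 (37.7 to 65.0 CPM), KCNG3 and KCNN3 in HT5, and KCNK1 and KCNN4 in HT7.

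Of the 15 auxiliary subunits tested, 6 were called lower on at least 1 day (17.5% of all genes) and 0 were called higher (17.7%) in edgeR. KCNE3 lay above normoxia on day 3 without passing in edgeR. DESeq2 called 2 of all the potassium channel genes higher on day 3, against 1 in edgeR. KCNMB1, the beta subunit that makes the KCNMA1 channel of smooth muscle more sensitive to calcium, had 3.98, 2.48 and 4.30 CPM in HT7 against 5.81, 9.04 and 6.79 CPM in NT7. Its day 7 log2FC was -1.003 (standard error 0.22, adjusted p = 0.00183 from edgeR), and its adjusted p was 0.0128 without NT7 replicate 2. KCNMB4, another beta subunit of that channel, had 3.37 and 0.812 CPM in HT5 against 7.33, 8.27 and 8.32 CPM in NT5. Its log2FC was -1.955 on day 5 (standard error 0.48, adjusted p = 0.0077) and -1.66 on day 7 (standard error 0.41, adjusted p = 0.00385), and dropping a sample ended the call in 4 of 5 cases on day 5 and in 4 of 6 on day 7. The HT5 samples of KCNMB4 were far from each other, and its day 5 log2FC was -3.29 without HT5 replicate 1 and -1.26 without HT5 replicate 2. KCNMB2 had a log2FC of -2.15 on day 5 (adjusted p = 0.0108 from edgeR) and -0.23 on day 7. Its day 5 value rests on 5 counts in all HT5 samples against 36 in NT5.

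The calcium-binding subunits KCNIP3 and KCNIP4, which modulate channels of the KCND type, both fell. KCNIP3 had 1.54, 0.388 and 0.759 CPM in HT3 against 1.06, 0.706 and 1.76 CPM in NT3. It had 0 and 0.108 CPM in HT5 against 0.788, 1.08 and 1.29 CPM in NT5, and 0, 0.0605 and 0.102 CPM in HT7 against 1.71, 0.810 and 0.935 CPM in NT7. These are 2 counts in HT5 against 55 in NT5, and 3 in HT7 against 52 in NT7. Scaled for depth, the normoxia level was 17.6 times that of hyperoxia on day 5 (exact Poisson interval 4.65 to 149) and 20.3 times on day 7 (6.59 to 102), intervals that cover counting error only. Both days passed (adjusted p = 0.00602 and 0.000639 from edgeR), but dropping a sample ended the day 5 call in 4 of 5 cases. KCNIP3 lies on chromosome 2 from 95276646 to 95360750.

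KCNIP4 had 0.807, 2.48 and 1.13 CPM in HT7 against 6.56, 6.004 and 4.24 CPM in NT7, and its log2FC was -1.93 (standard error 0.37, adjusted p = 0.000714 in edgeR), which did not pass in a fit of the day 7 samples alone. KCND2, a pore that such subunits join, had a log2FC of -2.08 on day 7 with 3 counts in all HT7 samples against 12 in NT7, and did not pass (adjusted p = 0.0505). KCNAB1, a beta subunit of Shaker-type channels, had 8.42, 9.31 and 6.56 CPM in HT7 against 17.3, 15.6 and 16.4 CPM in NT7, with a change of -1.02 on the log2 scale (standard error 0.19, adjusted p = 0.000504 in edgeR). TRNAU1AP overlaps it on the same strand. KCNAB2 had a day 7 log2FC of -0.14 and did not pass on any day.

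KCNE3, the subunit that holds KCNQ1 open in epithelia, changed direction between the days. It had 10.7, 10.9 and 7.12 CPM in HT3 against 5.10, 3.43 and 3.53 CPM in NT3, and 3.52, 3.45 and 2.46 CPM in HT7 against 7.93, 8.03 and 8.10 CPM in NT7. On day 3 every hyperoxia sample lay above, and on day 7 below, every normoxia sample. The log2FC was 1.25 on day 3 (standard error 0.25, adjusted p = 0.0322 from edgeR, not passed) and -1.35 on day 7 (standard error 0.25, adjusted p = 0.000532). The effect of day 7 lay below that of day 3 by -2.60 (standard error 0.35, adjusted p = 0.000706). KCNE1, KCNE2, KCNE4 and KCNE5 did not pass on any day.

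Whether the effect of hyperoxia differed between days 7 and 3 was tested in the same model, and 9 of the 55 genes passed (7.27% of all genes), 1 with a higher effect on day 7 (2.59%) and 8 with a lower effect (4.68%). KCNK1 was the former, and the latter included KCNA4, KCNA6, KCNE3, KCNH2, KCNH6, KCNJ2 and KCNK3. Dropping single samples gave 5 to 11 genes, 5 of them without HT7 replicate 1 or without NT3 replicate 1 or 2, and no gene with a higher effect on day 7 except without HT7 replicate 2. With the replicate block 7 passed, without KCNK1 and KCNK3. KCNA6, KCNH6 and KCNJ2 had been singled out by hyperoxia values of these same days, so their place in the count is a description and nothing is read from the shares. Between days 7 and 5, none of the 55 genes passed in edgeR (0% of all genes) or in DESeq2. In edgeR, 10 had an unadjusted p under 0.05 (8.56% of all genes).

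Age in normoxia was examined as NT7 against NT3. These samples also enter the hyperoxia against normoxia values that had singled out KCNJ2, KCNA6 and KCNH6, so the age values of these 3 genes are a description. None of the 55 genes passed in edgeR (0% of all genes) or in DESeq2. At an unadjusted p under 0.05 there were 7 (6.27% of all genes). These were KCNAB2, KCND1, KCNE3, KCNH4 and KCNJ2, with log2FC values of 0.58, 1.29, 0.997, 1.77 and 0.87, and KCND2 and KCNK2, with -1.82 and -1.10. The largest of their adjusted p-values from edgeR was 0.797 and the smallest 0.407, for KCNE3. The 95% interval was 0.51 to 1.48 for KCNE3. The median log2FC of the 55 genes was -0.03, against 0.01 for all genes.

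Other genes that act with potassium channels were described from a fixed list. Of 9 channel partners tested, ABCC9 alone passed, on day 7 (33.6% of all genes). DPP10, which joins channels of the KCND type, had 0, 0.121 and 0 CPM in HT7 against 0.889, 0.944 and 0.312 CPM in NT7 (adjusted p = 0.012 from edgeR). LRRC38, a gamma subunit of the BK channel, had 1.79, 0 and 2.61 CPM in HT7 against 0.137, 0 and 0 CPM in NT7 (adjusted p = 0.0112 from edgeR). Neither passed, and nor did DPP6, AMIGO1, AKAP9, NEDD4L, SGK1 and KCNRG on any day. Among 9 tested genes of the sodium-potassium pump, which builds the potassium gradient, and of chloride cotransport, 2 rose on day 5 (8.56% of all genes), and 2 rose (16.7%) and 2 fell (16.9%) on day 7. The beta subunit ATP1B3 was among those that rose, with a log2FC of 1.42 on day 5 (adjusted p = 0.00318 from edgeR) and 1.66 on day 7 (adjusted p = 0.000251). ATP1B2, a beta subunit found in nerve and glia, fell by 1.65 on the log2 scale on day 7 (adjusted p = 0.000159 from edgeR).

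Marker genes of lung cell types were read in the same fits, where 0.107% of all genes were lower on day 3, 7.62% lower and 8.56% higher on day 5, and 16.9% lower and 16.7% higher on day 7. Of 6 endothelial markers tested, 1 was lower on day 3, 4 on day 5 and 5 on day 7. The marker of day 3 was the endothelial receptor TIE1, with a log2FC of -0.87 (adjusted p = 0.00316 from edgeR), and no marker of another list passed on that day. The endothelial markers had a summed level of 637 to 1073 CPM in HT7 against 1794 to 1953 CPM in NT7. Of 7 pericyte markers, 2 and 6 were lower on days 5 and 7 (314 to 343 CPM in HT7 against 528 to 758 CPM in NT7), and of 6 smooth muscle markers, 4 and 3 (508 to 753 CPM against 832 to 1052 CPM). Of 5 alveolar type 1 markers, 2 and 3 were lower (1937 to 2539 CPM in HT7 against 6464 to 7245 CPM). Of 4 nerve markers, 1 and 2 were lower, with a sum of 109 to 141 CPM in HT3, 8.17 to 32.7 CPM in HT5 and 4.87 to 15.2 CPM in HT7 against 82.2 to 198 CPM in NT7. On day 5, 1 macrophage marker was higher and 1 heart muscle marker lower. On day 7, 1 of 7 macrophage markers was higher and 1 lower, 2 of 5 lymphocyte markers were lower, and 1 each was lower among the alveolar type 2, ciliated, heart muscle and skeletal muscle markers. The macrophage sum was 1858 to 2426 CPM in HT7 against 1112 to 1312 CPM in NT7. No neutrophil marker passed on any day, and their sum was 575 to 837 CPM in HT5 against 139 to 603 CPM in NT5 and 861 to 2750 CPM in HT7 against 796 to 965 CPM in NT7. No marker of these 12 lists that is in the table was at 0 in all samples. The skeletal muscle sum was 88.7 to 448 CPM in HT3 against 110 to 113 CPM in NT3, and the highest value was that of HT3 replicate 2. On day 5, ACTA1 and ATP2A1, genes of the contractile and calcium machinery of skeletal muscle, had log2FC values of 4.91 (adjusted p = 0.0166 from edgeR) and 5.99 (adjusted p = 0.0142), and did not pass. The part of these cell types in the potassium channel values was not tested.

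The 2 samples of HT5 differed in the same direction for most falling genes, HT5 replicate 2 being the lower for 11 of the 14, with KCNIP3, KCNIP4 and KCNK17 as exceptions. The summed level of all 70 genes was 345 and 483 CPM in HT5 and 313 to 420 CPM in HT7, against 520 to 547 CPM in NT5 and 496 to 505 CPM in NT7. KCNH3, whose counts are shared with SPATS2, was the largest entry of this sum, with an average of 90.5 CPM.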

How the data were processed

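The values are raw read counts per locus as the authors deposited them, from stranded poly(A) libraries read at both ends; no scaling had been applied. Per the labels' processing notes, FastQC, STAR 2.7.10a and the build OryCun2.0 were used, with no role given, and positions are those of the table. The counting program is not given in the sources used here. A locus with several genes is listed once per gene with the same counts. The table holds 13827 entries at 13313 loci, 44 without a human gene name.

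The model was fitted in R 4.3.3 by edgeR 4.0.16 (filterByExpr, TMM factors, quasi-likelihood fit with 6 group means to all 17 samples, prior count 0.125), and adjusted over the 13142 genes tested. CPM used the TMM factors and the totals of tested entries. A change called here has an adjusted p under 0.01, and a log2FC above 2 or below -2 decided which genes have every sample listed, along with KCNJ2, KCNA6 and KCNH6. Genes called on any day are named, with the most abundant gene of each channel type. Standard errors are the log2FC divided by the root of the F statistic, and 95% intervals are 1.96 standard errors to either side. Some of these genes, and some genes of the lists, are not reported here, and the figures leave them out. The scripts were tested on simulated data. The genes, channel types, partner list and marker lists (endothelial, smooth muscle, pericyte, alveolar type 1, alveolar type 2, ciliated, macrophage, neutrophil, lymphocyte, heart muscle, skeletal muscle and nerve) were chosen with earlier results of these data known.

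Alternatives were DESeq2 1.42.0, other size factors, no count filter, 1 entry per locus, other thresholds, fewer samples and a replicate block. Deviations of samples with the same replicate number from their group means correlated at 0.131 to 0.199 on day 3, at 0.141 and 0.264 on day 5 and at 0.0695 to 0.174 on day 7. All pairs passed 0.1 on days 3 and 5, but not on day 7. The block changed no call on day 3, whereas on day 5 it left 8 genes in place of 12. Figures were drawn with matplotlib 3.10.9.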

Additional observations from a re-analysis of the deposited data

Results flagged for a closer look

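The effect of hyperoxia on day 7 differed from that on day 3 in edgeR's test of this difference for 9 potassium channel genes, of which 8 are given here. With the replicate block 7 passed, without KCNK1 and KCNK3. On the log2 scale the difference (day 7 minus day 3) was -3.20 for KCNA4, -2.99 for KCNA6, -2.60 for KCNE3, -1.54 for KCNH2, -4.16 for KCNH6, -2.33 for KCNJ2, 1.99 for KCNK1 and -2.34 for KCNK3. KCNA6, KCNH6 and KCNJ2 had been singled out for their hyperoxia values, so their differences are a description. KCNJ2 went from a log2FC of 2.30 to -0.03, and KCNE3 from 1.25 to -1.35, whereas the log2FC of KCNA4, KCNA6, KCNH2, KCNH6 and KCNK3 was negative on both days, with day 3 values from -1.18 for KCNA6 to -0.07 for KCNA4, whose groups overlapped on day 3. The groups hold at most 3 samples, so no single sample was examined as standing apart within its group.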

How the results depend on the processing

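All 29 calls of a potassium channel gene on a day kept their direction under every alternative run, and all 29 passed with DESeq2 and with the other size factors. The 29 include calls of KCNJ2, KCNA6 and KCNH6, which hyperoxia values had singled out. Their place in the counts of this section is therefore a description. The only call of day 3 in edgeR was that of KCNJ2, so nothing about the family is read from its passing in other fits. On day 3, DESeq2 and an adjusted p under 0.05 each gave 2 genes in place of 1. On day 5, an adjusted p under 0.05 gave 19 genes in place of 12, a log2FC beyond 2 gave 5, no count filter gave 10 (without KCNA5 and KCNG3), 1 entry per locus gave 11 (without KCNG3), and a fit of the samples of day 5 alone gave 0. On day 7, a log2FC beyond 2 gave 8 genes in place of 16, and a fit of the samples of day 7 alone gave 12, without KCNIP4, KCNMB1, KCNMB4 and KCNN4. Leaving out each sample in turn gave 1 gene throughout on day 3, 2 to 9 on day 5, 14 to 17 on day 7 and 5 to 11 for the difference between days 7 and 3. With the replicate block, 1, 8 and 16 genes passed on days 3, 5 and 7, 7 for the difference between days 7 and 3 (without KCNK1 and KCNK3), and 0 between days 7 and 5 and between NT7 and NT3. The pairs with the same replicate number all correlated above 0.1 on days 3 and 5, but not on day 7. The calls lost with the block on day 5 were those of KCNA5, KCNH6, KCNIP3 and KCNK1. No name had more than 1 entry, so summing entries per name was not run. The 2 samples of HT5 limit day 5. Counts of 3 or fewer in every hyperoxia sample of a day limit KCNIP3 on days 5 and 7, KCNMB2 on day 5 and KCND2 on day 7. A lone HT5 sample was assumed to vary like the other groups.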
